A study of Oryza sativa Indica Group with 12 samples.

Results

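WRKY transcription factors were followed across the roots of 2 rice cultivars that differ in their tolerance to Fe toxicity. A probe set was taken as a WRKY member when its gene symbol or synonym in the array annotation was WRKY or OsWRKY with a number, or when the study's own gene tables described it as WRKY. This gave 12 probe sets for 11 genes among the 57258 probe sets tested. The annotation named 7 of them, for WRKY9, WRKY24, WRKY51, WRKY62, WRKY76 and, with 2 probe sets, WRKY71. The study's tables alone named the other 5, for WRKY11, WRKY19, WRKY40, WRKY77 and WRKY84. Those tables list probe sets that the study had chosen on these same 12 arrays for a change with excess Fe, so the values of these 5 are described here without a test, and the tests below are those of the 7 probe sets found by annotation. The tables also list WRKY76 and WRKY62, which the annotation found as well. The annotation lists no gene for 34727 of the 57258 probe sets, and WRKY genes that neither source names were not analysed here. Among these are WRKY13, WRKY45 and WRKY53, listed for pathogen resistance, so the members are no survey of the family.

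The groups were BR-IRGA 409 with excess Fe, BR-IRGA 409 control, EPAGRI 108 with excess Fe and EPAGRI 108 control, with 3 arrays each from samples labelled as biological replicates. BR-IRGA 409 is the susceptible cultivar and EPAGRI 108 the tolerant one, and both are indica rice. Excess Fe was 500 mg/L and control 6.5 mg/L, both as FeSO4 in hydroponic solution for 3 days. The control solution also received Na2SO4, so that both treatments held equal sulfur. Before treatment the plants had been raised in vermiculite and then in hydroponics, with a nutrient solution whose Fe source was FeCl3. RNA came from roots. Each value is a log2 level from RMA, a method that subtracts background, gives every array the same distribution and merges the probes of a probe set into a single value. Levels of different probe sets are not on a common scale, so each WRKY probe set was compared only with itself between groups. Control probe sets for non-rice sequences reached at most 4.51 to 5.01 on an array, and this maximum is called the background level here. Of the 12 WRKY probe sets, 9 lay above it on all 12 arrays, and WRKY40, WRKY77 and WRKY84 lay at or under it on some control arrays.

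WRKY proteins bind the W-box, a short motif in the promoters of many plant genes, through a domain that holds the amino acids of their name and a zinc finger. In rice they act in defence against fungi and bacteria, in the responses to abscisic acid and gibberellin, and in drought, heat and nutrient stress. WRKY62, WRKY71 and WRKY76 belong to the small group IIa, whose members mostly act as repressors and dampen defence gene expression. Many WRKY genes are themselves switched on within hours of an elicitor or a wound, and several proteins of the family act on the promoters of others.

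In the model of all 12 arrays without a replicate block, WRKY62 alone of the 7 probe sets found by annotation passed at any fold, in both cultivars. With the replicate number within each cultivar as a block, WRKY62 passed in BR-IRGA 409 only. Its change reached 3-fold in EPAGRI 108 only, and the 7 changed by very unequal amounts. In each cultivar 6 of 7 had a higher mean with excess Fe, and WRKY9 was the exception in both. Changes were tested with limma over all 12 arrays. A call needed a change of 3-fold or more and an adjusted p (Benjamini-Hochberg) below 0.05. In BR-IRGA 409, 0 of 7 were called higher, against 1.10% of all probe sets, and 0 of 7 lower, against 0.250%. At any fold 1 of 7 passed the adjusted p there, against 7.64% of all probe sets. An unadjusted limma p under 0.05 was found there for 3 of 7, and for 10568 of all 57258 probe sets. The spread in this test was estimated from the EPAGRI 108 arrays as well. With the BR-IRGA 409 arrays alone, 1 of 7 (WRKY76) was called higher, against 1.13% of all probe sets. At any fold 2 of 7 then passed, against 7.63%. In EPAGRI 108, 1 of 7 was called higher, against 0.283% of all probe sets, and no other passed at any fold, where the background was 0.992%. None of the 7 was called lower in EPAGRI 108, where 0.0227% of all probe sets were. There 2 of 7 had an unadjusted limma p under 0.05, both higher, and so had 5911 of all 57258 probe sets in either direction. The median log2 change of the 7 was 0.51 in BR-IRGA 409, where the median of all probe sets was -0.035, and 0.52 in EPAGRI 108, where it was -0.015. The log2 differences of the 5 genes that the study chose lay between 2.58 and 3.23 in BR-IRGA 409 and between 1.41 and 2.51 in EPAGRI 108. With them, 5 of 12 probe sets were past both thresholds as higher in BR-IRGA 409 and 4 of 12 in EPAGRI 108, counts that the study's choice on these arrays fixed for the most part and from which nothing is read. The study's own tables give EPAGRI 108 changes in the direction opposite to that of the array labels, and all directions here follow the labels.

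The EPAGRI 108 call of WRKY62 came and went together with the calls over all probe sets. Array numbers paired the arrays of a cultivar by the check used here, and with the number within each cultivar as a block 0 of 7 were called in EPAGRI 108, where 0 of all 57258 probe sets passed at any fold. In BR-IRGA 409 the same block left 1 of 7 past the adjusted p at any fold, where 6324 of all 57258 probe sets passed. With the number as a block over all 4 groups, 1 of 7 was called higher in EPAGRI 108, against 0.325% of all probe sets. EPAGRI 108 control 1 stood farthest of all 12 arrays from the others of its group, and it was the highest of its group in 10 of 12 WRKY probe sets. Without it WRKY62 and WRKY76 were called higher in EPAGRI 108, which is 2 of 7, against 0.798% of all probe sets. Without EPAGRI 108 control 2 or 3, or without EPAGRI 108 excess Fe 2 or 3, 0 of 7 were called and 0 of all 57258 probe sets passed at any fold. Leaving out any 1 of the BR-IRGA 409 arrays, which enter the EPAGRI 108 test only through the common estimate of the spread, also left 0 of 7, with 0 of all probe sets called at 3-fold.

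**Figure D1:**
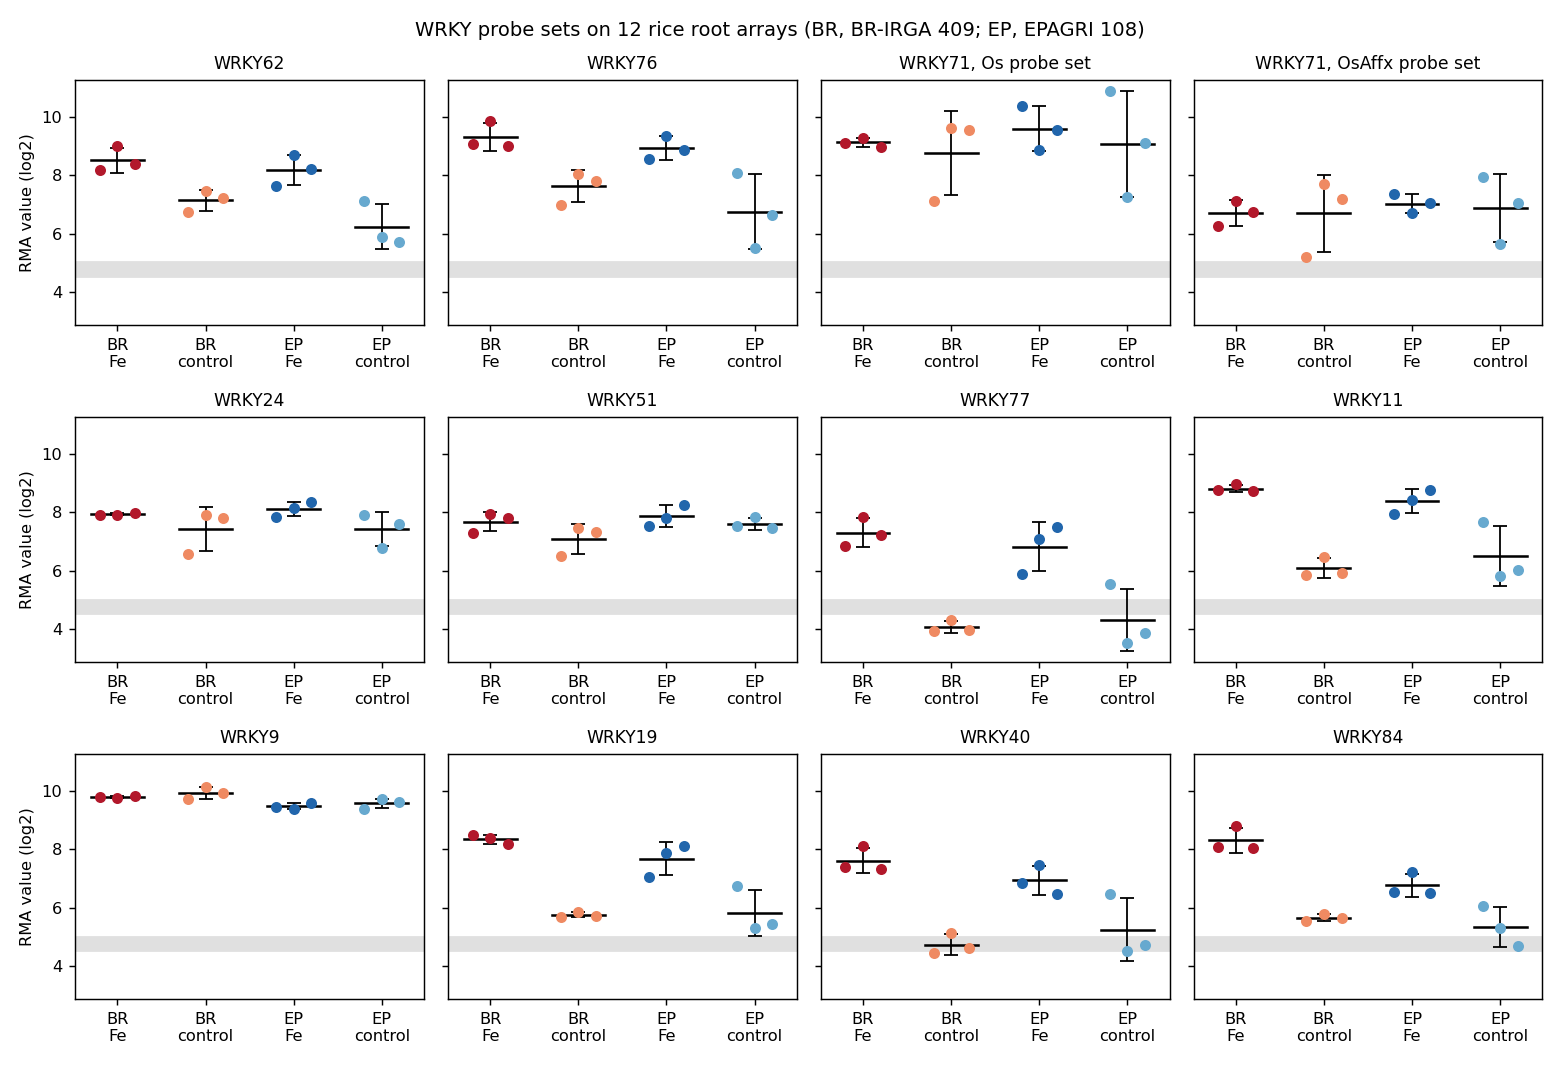
RMA log2 values of the 12 WRKY probe sets on each array, by group (BR Fe and BR control, BR-IRGA 409 with excess Fe and control; EP Fe and EP control, EPAGRI 108 with excess Fe and control; points in the order of the replicate numbers; black lines, mean ± SD of 3 arrays; grey band, background level from 4.51 to 5.01). WRKY77 lies at 6.86 to 7.83 in BR-IRGA 409 with excess Fe and at 3.95 to 4.30 in its control, while WRKY9 stays between 9.38 and 10.13 on all arrays.

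Among the group IIa genes found here, WRKY62 and WRKY76 lay higher with excess Fe on every array of both cultivars, and WRKY71 did not. WRKY62 (LOC_Os09g25070), a negative regulator of defence against blast and blight, had log2 values of 8.16, 8.99 and 8.38 in BR-IRGA 409 with excess Fe and of 6.73, 7.45 and 7.22 in its control. The EPAGRI 108 values were 7.64, 8.69 and 8.21 with excess Fe and 7.11, 5.89 and 5.70 in control. The excess Fe arrays were all above the control arrays in both cultivars, by a gap of 0.71 in BR-IRGA 409 and of 0.52 in EPAGRI 108. WRKY62 rose by 1.37 ± 0.37 in log2 (SE, 2.59-fold) in BR-IRGA 409, which passed the limma test at any fold with an adjusted p of 0.0413. In EPAGRI 108 it rose by 1.94 ± 0.37 (3.85-fold, limma adjusted p of 0.0392). With the number within each cultivar as a block the adjusted p was 0.0712 in EPAGRI 108 and 0.0424 in BR-IRGA 409. With the number as a block over all 4 groups it was 0.0390 in EPAGRI 108, where WRKY62 was still called, and 0.0365 in BR-IRGA 409. Leaving out any 1 of the 6 BR-IRGA 409 arrays, or EPAGRI 108 excess Fe 3, took the BR-IRGA 409 change past 0.05, to adjusted p of 0.0515 to 0.176.

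WRKY76 (LOC_Os09g25060), a repressor of phytoalexin genes in rice infected with blast, is the direct neighbour of WRKY62 in the RefSeq annotation, with 0 annotated genes between them. Its log2 values were 9.08, 9.86 and 9.01 in BR-IRGA 409 with excess Fe and 7.00, 8.05 and 7.81 in its control. In EPAGRI 108 they were 8.54, 9.36 and 8.85 with excess Fe and 8.08, 5.51 and 6.65 in control. As for WRKY62, no control array reached the lowest excess Fe array of its cultivar, and the control arrays of EPAGRI 108 spread over 2.58 log2 units. The log2 difference was 1.70 ± 0.51 (SE, 3.24-fold) in BR-IRGA 409 and 2.17 ± 0.51 (4.50-fold) in EPAGRI 108. Neither passed the limma test, with adjusted p of 0.0702 and, in EPAGRI 108, 0.0695. Without EPAGRI 108 control 1 both were called, with adjusted p of 0.00962 in BR-IRGA 409 and 0.00144 in EPAGRI 108, and without EPAGRI 108 control 2 the BR-IRGA 409 change was called with 0.0222.

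WRKY71, which represses gibberellin-induced amylase expression in aleurone cells and is also known as a defence regulator, had 2 probe sets. The probe set whose identifier starts with Os. (the Os probe set) had log2 values of 9.11, 9.29 and 8.96 in BR-IRGA 409 with excess Fe and of 7.11, 9.61 and 9.56 in its control, and 10.39, 8.86 and 9.53 in EPAGRI 108 with excess Fe and 10.88, 7.25 and 9.10 in its control. The probe set whose identifier starts with OsAffx had 6.25, 7.13 and 6.75 in BR-IRGA 409 with excess Fe and 5.18, 7.70 and 7.19 in its control, and 7.35, 6.69 and 7.05 in EPAGRI 108 with excess Fe and 7.95, 5.64 and 7.05 in its control. The groups overlapped in both probe sets and both cultivars, and both probe sets put the same arrays at the extremes of the control groups: BR-IRGA 409 control 1 lowest and control 2 highest, and EPAGRI 108 control 2 lowest and control 1 highest. The 3 arrays of a group stood in the same order in both probe sets in 3 of 4 groups.

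WRKY71 varied more between control arrays than between excess Fe arrays. The SD of the Os probe set in BR-IRGA 409 was 0.17 under excess Fe and 1.43 in control. In EPAGRI 108 it was 0.76 under excess Fe and 1.81 in control. Its log2 change with excess Fe was 0.36 (95% interval -1.40 to 2.12) in BR-IRGA 409 and 0.52 (-1.24 to 2.28) in EPAGRI 108. For the OsAffx probe set it was 0.021 (-1.32 to 1.37) in BR-IRGA 409 and 0.15 (-1.19 to 1.50) in EPAGRI 108. These intervals reach past 3-fold for the Os probe set in both cultivars, so a change of that size could not be told from none. The sign turned without single arrays: for the Os probe set the log2 change was -0.46 without BR-IRGA 409 control 1 and -0.39 without EPAGRI 108 control 2.

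Of the members known from hormone responses, WRKY24 and WRKY51 did not pass the test, and WRKY77 was under the background level on 5 of 6 control arrays. WRKY24, a repressor of abscisic acid and gibberellin responses in aleurone cells, had log2 values of 7.90, 7.92 and 7.98 in BR-IRGA 409 with excess Fe and of 6.56, 7.89 and 7.82 in its control. Its EPAGRI 108 values were 7.85, 8.14 and 8.35 with excess Fe and 7.92, 6.77 and 7.59 in control. Only BR-IRGA 409 control 1 stood clearly apart in the susceptible cultivar, and the other 5 arrays of that cultivar lay close together. The log2 change was 0.51 (95% interval -0.22 to 1.24, limma adjusted p of 0.499) in BR-IRGA 409 and 0.68 (-0.049 to 1.42, adjusted p of 0.539) in EPAGRI 108, and in BR-IRGA 409 it was 0.080 without control 1.

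WRKY51, which acts together with WRKY71 on the gibberellin response of aleurone cells, had log2 values of 7.30, 7.93 and 7.81 in BR-IRGA 409 with excess Fe and of 6.51, 7.46 and 7.33 in its control. The tolerant cultivar gave 7.54, 7.82 and 8.27 with excess Fe and 7.53, 7.85 and 7.47 in control. The groups overlapped in both cultivars. The log2 change was 0.58 (95% interval 0.015 to 1.14, limma adjusted p of 0.255) in BR-IRGA 409 and 0.26 (-0.30 to 0.83, adjusted p of 0.900) in EPAGRI 108.

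WRKY77 (LOC_Os01g40260), which activates an abscisic acid-inducible promoter in cereal aleurone cells, was chosen by the study on these arrays. Its log2 values were 6.86, 7.83 and 7.21 in BR-IRGA 409 with excess Fe and 3.95, 4.30 and 3.96 in its control, and all 3 control values lay under the background level. Values in EPAGRI 108 were 5.89, 7.09 and 7.49 with excess Fe and 5.53, 3.54 and 3.87 in control, where 2 of 3 arrays lay under the background level. Signal above background was thus seen in control roots on only 1 of 6 arrays, EPAGRI 108 control 1, and on all 6 excess Fe arrays. With the control arrays of BR-IRGA 409 set to the background level, WRKY77 was at least 5.31-fold higher with excess Fe, beside a log2 difference of 3.23 ± 0.49 (SE) in the values as measured. In EPAGRI 108 the log2 difference was 2.51 ± 0.49. Both differences rest in part on values not above background, and with 16 added to the linear values they were 2.41 in BR-IRGA 409 and 1.80 in EPAGRI 108.

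**Figure D2:**
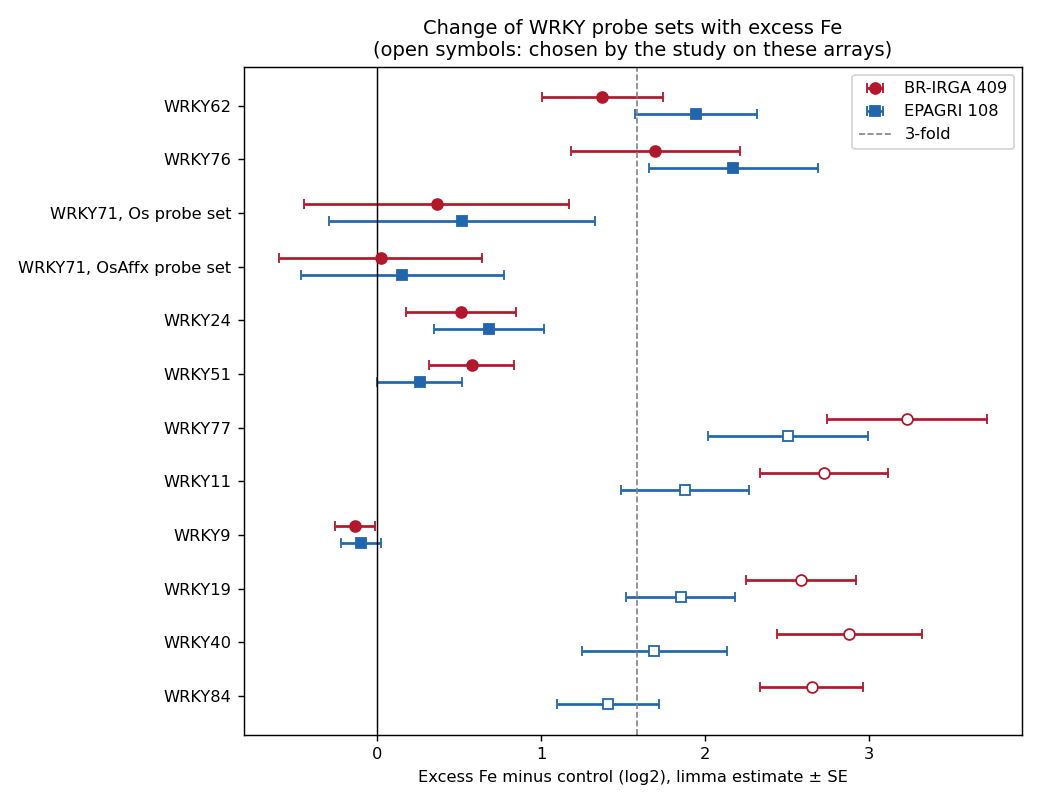
Log2 difference of each WRKY probe set, excess Fe minus control, in BR-IRGA 409 (circles) and EPAGRI 108 (squares), as limma estimates ± SE over 3 arrays a group. Open symbols are the 5 genes that the study chose on these arrays, which lie between 2.58 and 3.23 in BR-IRGA 409 and between 1.41 and 2.51 in EPAGRI 108; the dashed line is 3-fold.

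The other genes that the study's tables added were WRKY11, WRKY19, WRKY40 and WRKY84. Their BR-IRGA 409 groups stood far apart, which the study's choice on these arrays favoured. In EPAGRI 108, control 1 was the control array closest to the excess Fe arrays. It lay under the lowest of them by 0.28 for WRKY11, 0.32 for WRKY19 and 0.45 for WRKY84, and the groups of WRKY40 just overlapped. WRKY11 (LOC_Os01g43650), known to raise heat and drought tolerance of rice when driven by a heat shock promoter, had log2 values of 8.76, 8.97 and 8.73 in BR-IRGA 409 with excess Fe and of 5.86, 6.49 and 5.92 in its control. EPAGRI 108 arrays read 7.96, 8.44 and 8.77 with excess Fe and 7.67, 5.82 and 6.03 in control. The gap between the lowest excess Fe array and the highest control array was 2.24 in BR-IRGA 409 and 0.28 in EPAGRI 108. The log2 difference was 2.73 ± 0.39 (SE, 6.62-fold) in BR-IRGA 409 and 1.88 ± 0.39 (3.68-fold) in EPAGRI 108.

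WRKY19 (LOC_Os05g49620) had log2 values of 8.48, 8.39 and 8.19 in BR-IRGA 409 with excess Fe and of 5.70, 5.88 and 5.72 in its control. For EPAGRI 108 they were 7.06, 7.86 and 8.13 with excess Fe and 6.74, 5.31 and 5.45 in control. The BR-IRGA 409 arrays of a group agreed within 0.29 log2 units, while each EPAGRI 108 group spread over more than 1 unit. The log2 difference was 2.58 ± 0.33 (SE, 5.99-fold) in BR-IRGA 409 and 1.85 ± 0.33 (3.61-fold) in EPAGRI 108.

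The probe set described as WRKY40 (LOC_Os11g02530), which another description in the same tables calls WRKY62 and to which the annotation gives no gene, had log2 values of 7.41, 8.12 and 7.33 in BR-IRGA 409 with excess Fe and of 4.46, 5.14 and 4.63 in its control. The EPAGRI 108 arrays gave 6.87, 7.47 and 6.49 with excess Fe and 6.49, 4.51 and 4.75 in control. In each control group 2 of 3 arrays lay at or under the background level, and the EPAGRI 108 groups met at 6.49. The log2 difference was 2.88 ± 0.44 (SE) in BR-IRGA 409 and 1.69 ± 0.44 in EPAGRI 108.

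WRKY84 (LOC_Os05g40070) had log2 values of 8.09, 8.81 and 8.04 in BR-IRGA 409 with excess Fe and of 5.56, 5.79 and 5.64 in its control. In the tolerant cultivar it had 6.56, 7.23 and 6.52 with excess Fe and 6.07, 5.31 and 4.70 in control, where 1 array lay under the background level. The groups did not overlap in either cultivar. The log2 difference was 2.65 ± 0.31 (SE, 6.27-fold) in BR-IRGA 409 and 1.41 ± 0.31 (2.66-fold) in EPAGRI 108.

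WRKY9 had the smallest SE of a change among the 12 probe sets, 0.12 in log2. Its log2 values were 9.80, 9.75 and 9.83 in BR-IRGA 409 with excess Fe and 9.73, 10.13 and 9.92 in its control. In EPAGRI 108 they were 9.46, 9.38 and 9.59 with excess Fe and 9.40, 9.72 and 9.62 in control. The groups overlapped in both cultivars, and the change was -0.13 (95% interval -0.40 to 0.13, limma adjusted p of 0.661) in BR-IRGA 409 and -0.10 (-0.36 to 0.17, adjusted p of 0.939) in EPAGRI 108.

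Counted by overlap, all 3 excess Fe arrays lay above all 3 control arrays in 3 of the 7 probe sets found by annotation in BR-IRGA 409 (WRKY24, WRKY62 and WRKY76), against 11.1% of all probe sets. In EPAGRI 108 this held for 2 of 7 (WRKY62 and WRKY76), against 6.34%. For WRKY24 in BR-IRGA 409 the gap was 0.0061 log2 units. Of the 5 genes that the study chose on these arrays, the groups stood apart in this way for 5 in BR-IRGA 409 and for 4 in EPAGRI 108, which is given as a description only.

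The arrays of a group did not scatter independently from one WRKY probe set to the next. BR-IRGA 409 control 1 was the lowest and control 2 the highest of its group in 12 of 12 probe sets. BR-IRGA 409 excess Fe 2 was the highest of its group in 9 of 12, and EPAGRI 108 control 1 in 10 of 12, the exceptions being WRKY9 and WRKY51. EPAGRI 108 excess Fe 1 was the lowest of its group in 7 of 12. In the WRKY probe sets, arrays with the number 1 thus did not go one way, since control 1 was low in BR-IRGA 409 and mostly high in EPAGRI 108. Over all probe sets, however, the deviations of these control arrays from their group means correlated at 0.266. The 12 probe sets share their arrays, so their changes are not separate pieces of evidence.

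**Figure D3:**
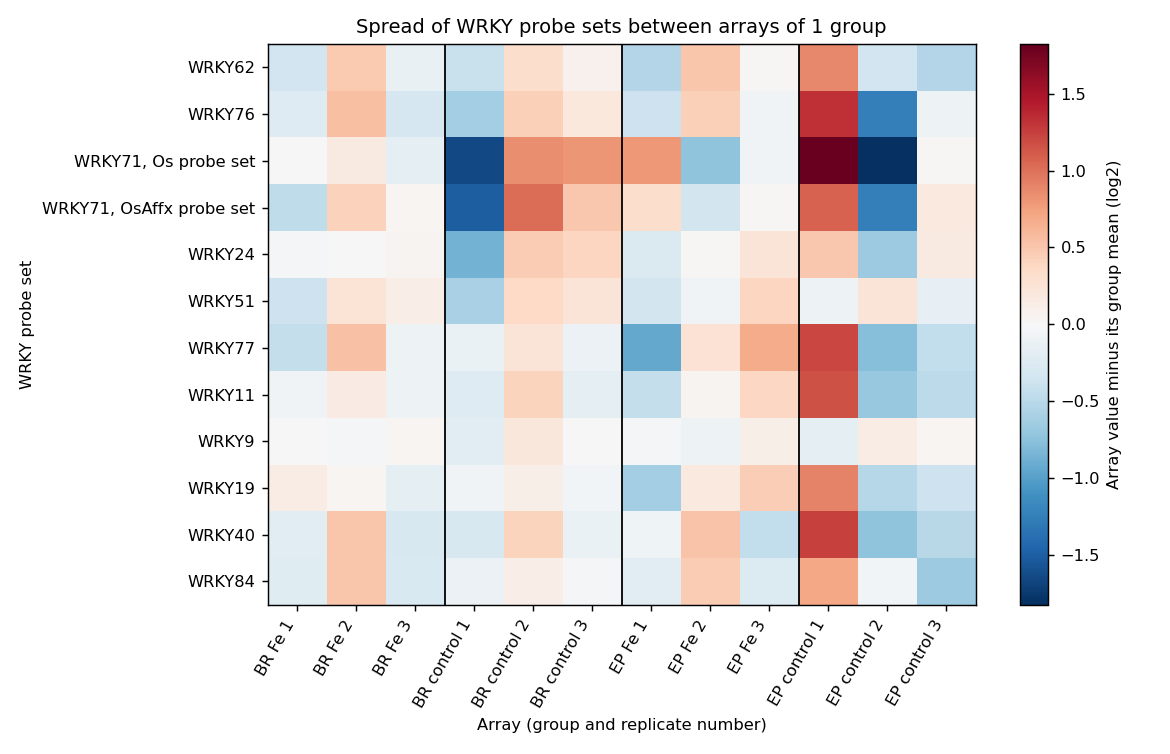
Deviation of each array from the mean of its own group (log2, colour scale) for the 12 WRKY probe sets, with the arrays of 1 group between vertical lines. BR-IRGA 409 control 1 is below its group mean in all 12 rows, and EPAGRI 108 control 1 is the highest of its group in 10 of 12.

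Single arrays moved the values in both cultivars. Without EPAGRI 108 control 1, the log2 difference in EPAGRI 108 was 2.38 for WRKY62, 2.84 for WRKY76, 3.11 for WRKY77, 2.46 for WRKY11, 2.30 for WRKY19, 2.31 for WRKY40 and 1.76 for WRKY84, each larger than with all arrays. Without EPAGRI 108 control 2, the difference was 1.55 for WRKY76 and 2.12 for WRKY77. In BR-IRGA 409 the range over the arrays left out was 0.080 to 0.74 for WRKY24 and 0.28 to 0.77 for WRKY51, and the 5 genes that the study chose stayed between 2.40 and 3.45 whichever array was left out.

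**Figure D4:**
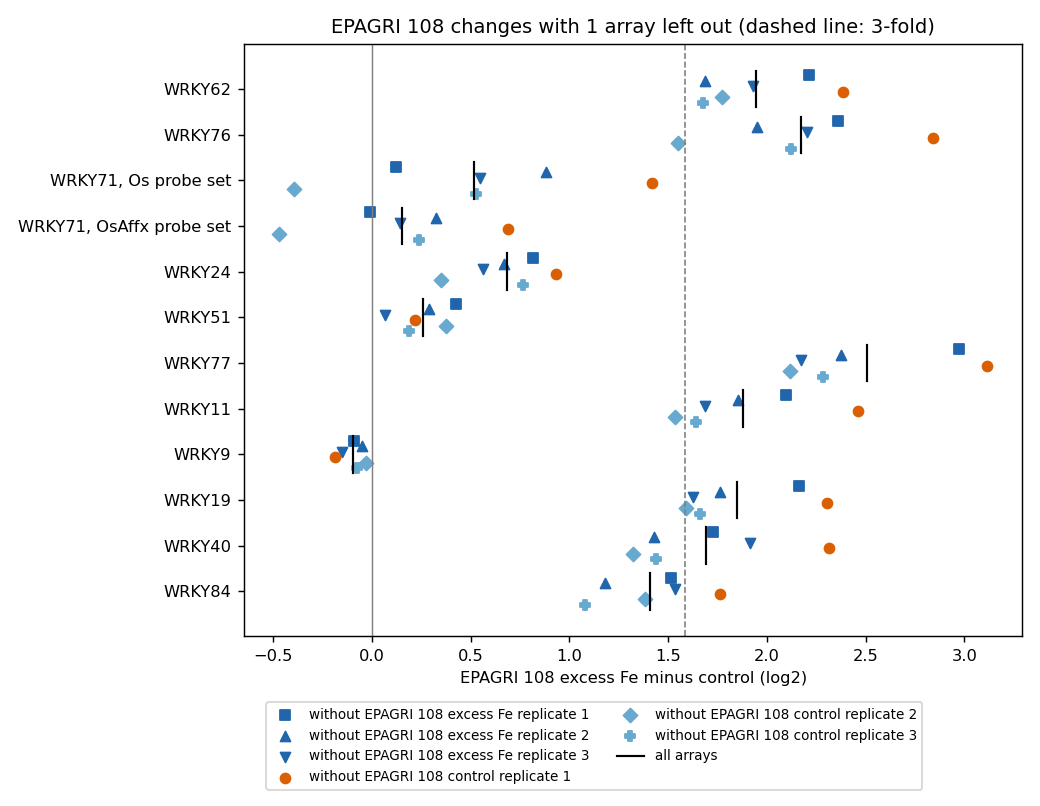
Log2 difference between EPAGRI 108 excess Fe and control for each WRKY probe set with all arrays (black lines) and with 1 EPAGRI 108 array left out (symbols; orange, without control 1; dashed line, 3-fold). Without control 1 the difference of WRKY76 is 2.84, against 2.17 with all arrays, and that of WRKY71 (Os probe set) turns to -0.39 without control 2.

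The responses of the cultivars were compared through the interaction, the BR-IRGA 409 change minus the EPAGRI 108 change. With limma 0 of the 7 probe sets found by annotation were called, against 0.140% of all probe sets. An unadjusted p under 0.05 was found for 0 of 7, and for 2695 of all 57258 probe sets. Their interaction lay between -0.57 and 0.32. For WRKY62 it was -0.57 (95% interval -1.71 to 0.57) and for WRKY76 -0.48 (-2.06 to 1.11), so that these arrays could neither show nor bound tightly a difference between the cultivars. For WRKY76 it was -1.14 without EPAGRI 108 control 1 and 0.14 without EPAGRI 108 control 2. The 5 genes that the study chose had interactions between 0.72 for WRKY77 and 1.24 ± 0.44 (SE) for WRKY84, given without a test because the choice itself rested in part on the BR-IRGA 409 change. Without EPAGRI 108 control 1 these were 0.12 for WRKY77, 0.27 for WRKY11, 0.28 for WRKY19, 0.57 for WRKY40 and 0.89 for WRKY84, and the values of WRKY77 rest on control arrays under the background level. With the treatment labels of EPAGRI 108 exchanged, which would follow the direction of the study's own tables, 2 of 7 (WRKY62 and WRKY76) were called in the interaction, against 3.21% of all probe sets. The exchange turns the interaction into the sum of the changes of both cultivars as labelled. It is thus large for any probe set that rose in both, and no cultivar difference is read from it.

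Between the cultivars, no WRKY probe set found by annotation was called in control roots, though several intervals were wide. With limma 0 of 7 were called between EPAGRI 108 and BR-IRGA 409 in control, against 1.11% of all probe sets. An unadjusted p under 0.05 was found for 2 of 7, WRKY9 and WRKY62, and for 5808 of all 57258 probe sets. The log2 difference, EPAGRI 108 minus BR-IRGA 409, ranged between -0.90 for WRKY62 (95% interval -1.71 to -0.098, adjusted p of 0.379) and 0.51 for WRKY51. WRKY76 was next to WRKY62 with -0.87 (-1.99 to 0.25, adjusted p of 0.698), and the interval of the Os probe set of WRKY71 ran from -1.44 to 2.08. Without EPAGRI 108 control 1 the difference was -1.34 for WRKY62, with a limma adjusted p of 0.0354, and -1.54 for WRKY76, with 0.0650. WRKY9 had a difference of -0.35 ± 0.12 (SE, adjusted p of 0.235), its values in EPAGRI 108 control being 9.40, 9.72 and 9.62 and those in BR-IRGA 409 control 9.73, 10.13 and 9.92. The 5 genes that the study chose differed by -0.30 to 0.51 in control, and the sign turned without a single control array in all 5.

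With excess Fe, again 0 of 7 were called at 3-fold between EPAGRI 108 and BR-IRGA 409, against 1.19% of all probe sets. None of the 7 passed at any fold, against 3.65%. An unadjusted limma p under 0.05 was found for 1 of 7, WRKY9, and for 6590 of all 57258 probe sets. Of the 5 genes that the study chose, WRKY84 averaged 6.77 ± 0.40 in EPAGRI 108 and 8.31 ± 0.43 in BR-IRGA 409 (SD, n = 3 each), a log2 difference of -1.54 ± 0.31 (SE). Its values did not overlap, the highest in EPAGRI 108 being 7.23 and the lowest in BR-IRGA 409 being 8.04. The BR-IRGA 409 arrays in this comparison are among those on which the study chose WRKY84, so the difference is a description. All 5 lay lower in EPAGRI 108 than in BR-IRGA 409 with excess Fe, by 0.43 to 1.54 log2 units. The study chose all 5 at least in part for a rise on these BR-IRGA 409 arrays, so their common direction is a description too.

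Genes that act around WRKY factors were counted from a list of kinases, receptors, regulators and targets. Of its 26 symbols, 14 were matched, for 14 genes with 18 probe sets, after an actin gene that shares a symbol with a Rac GTPase was left out. It was left out after its values had been seen, and with its probe sets the counts below were the same, out of 20. In BR-IRGA 409, 1 of 18 probe sets was called higher, against 1.10% of all probe sets, and 0 lower, against 0.250%. In EPAGRI 108 none passed at any fold, where 0.992% of all probe sets did. The one was PBZ1, a pathogenesis-related protein of the PR10 class that is induced by probenazole. PBZ1 had log2 values of 13.11, 13.29 and 13.00 in BR-IRGA 409 with excess Fe and of 10.09, 10.41 and 7.92 in its control. Roots of EPAGRI 108 gave 13.45, 13.92 and 13.83 with excess Fe and 13.01, 10.59 and 10.55 in control, with control 1 again far above the others. PBZ1 rose by 3.66 in log2 in BR-IRGA 409 (limma adjusted p of 0.00447), and in EPAGRI 108 the difference was 2.35 (adjusted p of 0.128). Probe sets matched to the symbols MPK3, MPK5, MPK6 and MAPK6, of mitogen-activated protein kinases that phosphorylate WRKY factors, did not pass in either cultivar. Nor did those matched to NPR1-type regulators of salicylic acid signalling, the chitin receptor genes CEBIP and CERK1 and the oxidase RBOHB. MPK3, MAPK6, NPR1 and CERK1 each matched different genes under the same symbol. Which of these genes has the named function was not resolved. The median log2 change of the 18 probe sets was 0.33 in BR-IRGA 409 and 0.16 in EPAGRI 108, where the medians of all probe sets were -0.035 and -0.015.

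The root label was checked with the silicon transporters LSI1 and LSI2 and the regulators SHR1 and SCR1, of which 3 of 4 probe sets lay above the background level on all arrays. LSI2 fell by 0.83 in log2 with excess Fe in BR-IRGA 409 (limma adjusted p of 0.00126), and the other 3 did not pass in either cultivar. Leaf markers moved with the groups too: 3 of 8 symbols (RBCS, CAB2R and RCA) were matched with 10 probe sets, of which 8 lay above the background level on all arrays and 1, of RBCS, on none. The log2 of their summed level was 11.96 to 12.31 in BR-IRGA 409 with excess Fe and 12.34 to 13.39 in its control. In EPAGRI 108 it was 10.63 to 11.001 with excess Fe and 10.63 to 11.79 in control. This sum mixes probe sets without a common scale, and the bright CAB2R probe sets weigh most in it. CAB2R did not pass with excess Fe in either cultivar. Between the cultivars in control, EPAGRI 108 minus BR-IRGA 409, its log2 differences were -2.04 and -1.99 (limma adjusted p of 0.00416 and 0.0115). With excess Fe they were -1.80 and -1.54 (limma adjusted p of 0.00979 and 0.0537). In BR-IRGA 409, 5 of 10, all of RBCS or RCA, passed as lower with excess Fe at any fold, against 3.41% of all probe sets. The part of leaf RNA in the WRKY values was not tested. In whole roots fewer cells of a type and less RNA per cell cannot be told apart.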

How the data were processed

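Root RNA of 12 samples, grouped by their labels, was hybridised to GeneChip Rice Genome Arrays. The authors computed the deposited log2 values with RMA in ArrayAssist. Their methods then add a fixed quantity of unstated size to the linear values, and 16 added was an alternative. The 123 control probe sets among the 57381 did not enter the tests. The background level of an array was the highest of 23 control probe sets for non-rice sequences, and 30305 to 34108 probe sets exceeded it. A group with no array above it was raised to that level before a fold, which is then a lower bound. Only the number of arrays limits precision that can be stated here.

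Members came from the array annotation and the descriptions in the study's tables, 1 of which was held only in part. In those tables all 9 WRKY entries of the symbol column stand on rows not described as WRKY, so that column was not used. Gene neighbours came from the order of gene start positions in RefSeq (assembly ASM3414082v1), and no sequences were used. The members and gene lists were chosen with earlier results of these data known. Every member is named with its values, and genes of the other lists by their counts or if called.

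The 4 group means were estimated in a single linear model (limma 3.58.1, R 4.3.3) with 8 residual degrees of freedom, and p-values were adjusted over 57258 probe sets. Python 3.11.15 with pandas 2.3.3 and matplotlib 3.10.9 made the tables and plots. On simulated data the model found 97% of the 4-fold and 100% of the 8-fold changes put into the BR-IRGA 409 contrast, with 0 false calls. For the EPAGRI 108 contrast these shares were 96% and 100%, with 1 false call. The simulated noise was independent between arrays and probe sets, and the same changes were put into both cultivars. Residuals of the real arrays were correlated, so these shares need not hold for them. A t-test without adjustment, as in the methods, was an alternative. Pairing by replicate number was checked with correlations of the arrays' residuals around their group means. These were 0.490, 0.209 and 0.108 within BR-IRGA 409 and 0.454, 0.302 and 0.151 within EPAGRI 108, all over 0.1, so the numbers were taken to pair the arrays of a cultivar. Over all groups, 15 of 18 same-numbered pairs were over 0.1, with correlations between 0.0104 and 0.490. The labels state no pairing, and control 3 correlated more with excess Fe 2 in both cultivars (0.314 and 0.259).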

Additional observations from a re-analysis of the deposited data

How the results depend on the processing

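Counts over all 12 members are given here for the processing alone, since the study chose 5 of them on these arrays. The BR-IRGA 409 count of WRKY probe sets called higher (5) stayed between 5 and 6 over all alternatives that kept the 12 members, and the count at any fold (6) between 5 and 7. With only the members named by the annotation, an alternative chosen after seeing the data, these counts were 0 and 1, and both EPAGRI 108 counts were 1. The EPAGRI 108 counts (4 at 3-fold and 4 at any fold) were both 0 with the replicate block within each cultivar, with 16 added to the linear values, with the methods' t-test after Benjamini-Hochberg adjustment and with the arrays of that cultivar alone, and in each of these 4 settings 0 of all 57258 probe sets passed in EPAGRI 108. With single arrays left out they lay between 0 and 7, and the probe sets called higher over the whole array between 0 and 457, against 162 with all arrays. With the replicate block over all 4 groups they were 3 and 4, with arrays centred on their medians 3 and 3, and with the methods' t-test without adjustment 4 and 5. Either block left the BR-IRGA 409 counts at 5 and 6. WRKY76 in BR-IRGA 409 was called with the arrays of that cultivar alone (limma adjusted p of 0.0108). The block within each cultivar gives no value between cultivars, which it absorbs, and the methods' t-test none for the interaction. The interaction count (0) was 7 with the EPAGRI 108 treatment labels exchanged, which makes it a sum of the changes of both cultivars. There 3.21% of all probe sets were called, and 5 of the 7 were genes the study chose. The interaction count was 0 under the other alternatives run. The count between the cultivars with excess Fe (0) lay between 0 and 1 with single arrays left out, the 1 being WRKY84, which the study chose. With 1 array left out, the sign turned in at least 1 setting for 5 of 12 interactions (WRKY9, WRKY24, WRKY76 and both probe sets of WRKY71), for 8 of 12 control differences between the cultivars and for 1 of 12 with excess Fe (WRKY51). Of the changes within a cultivar, those of WRKY71 turned sign. For the probe set whose identifier starts with OsAffx the BR-IRGA 409 change was -0.030 with 16 added and lay between -0.73 and 0.53 with single arrays left out, and the EPAGRI 108 change between -0.47 and 0.69. For the Os probe set they lay between -0.46 and 0.79 in BR-IRGA 409 and between -0.39 and 1.42 in EPAGRI 108. With 16 added, the BR-IRGA 409 difference of WRKY77 was 2.41, against 3.23. Groups of 3 arrays limit every count, and why a count moved was not tested except where fewer members or arrays entered.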
